A study of Mus musculus with 3 samples.

Results

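Chromatin modifiers are the enzymes and structural proteins that write, erase or read marks on DNA and histones, or that move and fold nucleosomes. The 36 genes described here were taken by symbol from the 27998 genes of each count table as epigenetic writers, erasers and remodellers, and were measured in cells cleaned of other lineages. A cell was kept when Lyz2, S100a8 and S100a9 together gave fewer than 5 UMIs and when Cd79a and Cd79b together gave at most 1 UMI. A UMI is 1 counted transcript molecule. Every one of the 36 symbols was found in all 3 libraries. Levels are given as CPM, the usual scaling of UMIs to a common library total. A mean of at least 10 CPM over the libraries was reached by 35 of the 36, and these entered the counts of calls. Sirt1, with a mean of 7.93 CPM, did not, and is given by its values.

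The study profiled single cells of 3 populations sorted from bone marrow of C57BL/6 mice, with 1 library of 10x Genomics Chromium v2 chemistry per population. ILCpro_KO holds progenitors of innate lymphoid cells (ILCs, lymphocytes without rearranged antigen receptors) from Tcf7EGFPnull/- mice. Their gate was Lin- Kit+ 2B4+ a4b7+ Tcf7+, and Tcf7 encodes the transcription factor TCF-1. ILCpro_WT holds the cells of the same gate from Tcf7EGFP/+ mice, so its "WT" carries the EGFP allele on 1 chromosome. ALP holds Lin- Kit+ 2B4+ a4b7- Flt3high IL-7Ra+ progenitors, also from Tcf7EGFP/+ mice. ILCpro_KO over ILCpro_WT thus compares genotypes within 1 gate, ILCpro_WT over ALP compares gates within 1 genotype, and ILCpro_KO over ALP differs in both. The sources used here give no age, sex or number of animals, and cells of 1 library are not replicates, so no difference below has a replicate check or a test. The intervals in brackets are exact 95% intervals of counting error alone. Counts were taken at transcript ends, so levels are compared between libraries and not between genes.

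DNA methyltransferases place methyl groups on cytosine, Dnmt1 by copying the pattern onto newly replicated strands and Dnmt3a and Dnmt3b by setting it anew, while TET enzymes oxidise the mark as a step to its removal. Polycomb complexes methylate and ubiquitinate histones at silent genes, and histone demethylases, acetyltransferases and deacetylases add or take off the marks that go with repression or activity. Remodellers of the SWI/SNF and NuRD complexes slide or evict nucleosomes, and Ctcf and cohesin fold the fibre into loops. In blood progenitors several of these genes, Dnmt3a, Tet2 and Ezh2 among them, are known for their part in self-renewal and lineage choice.

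The cleaned libraries held 631 ILCpro_KO, 1805 ILCpro_WT and 769 ALP cells, or 88.1%, 98.7% and 94.9% of the cells that passed the filters on genes and mitochondrial UMIs. Their totals were 3739970, 6005199 and 3893631 UMIs, and the median cell held 5176, 2889 and 4534 UMIs in the same order. Tcf7 itself stood at 61.5 CPM in ILCpro_KO, 365 CPM in ILCpro_WT and 1.54 CPM in ALP. The sources used here do not say whether the counted 3′ end of Tcf7 lies in the altered part of the null allele, so its level is not a check of the genotype. The 11 ILC progenitor markers summed to 2063 CPM in ILCpro_KO, 2770.4 CPM in ILCpro_WT and 491 CPM in ALP, and the 6 markers of all-lymphoid progenitors to 276, 193 and 1992 CPM in the same order. Between genotypes single markers of the ILC list differed in direction, with Zbtb16 at 57.2 CPM in ILCpro_KO and 274 CPM in ILCpro_WT, Nfil3 at 163 and 73.9 CPM, and Id2 at 725 and 717 CPM. So did those of the all-lymphoid list, with Dntt at 92.0 CPM in ILCpro_KO and 30.6 CPM in ILCpro_WT and Il7r at 10.7 and 97.1 CPM. Markers of other cell types were still found after cleaning, and their sums differed between the libraries. The 11 neutrophil and monocyte markers summed to 2093 CPM in ILCpro_KO, 349.7 CPM in ILCpro_WT and 481 CPM in ALP, with Ngp and Camp at 0 UMIs in ILCpro_WT. Sums over the 6 mast cell and basophil markers were 920.1 CPM in ILCpro_KO, 321 CPM in ILCpro_WT and 30.8 CPM in ALP, where Fcer1a had 0 UMIs. For the 8 erythroid and megakaryocyte markers the sums were 471, 66.8 and 211 CPM in the same order, with Pf4 at 0 UMIs in ALP. The 5 T lineage markers gave 112, 8.66 and 0.770 CPM in that order. Cd8a was at 0 UMIs in ILCpro_KO, Cd4 in ILCpro_WT, and both of these with Cd3e and Cd3g in ALP. The 7 NK and cytotoxic markers summed to 43.3, 18.7 and 1.28 CPM, the 8 markers of conventional dendritic cells and MHC class II to 1425, 717 and 648 CPM, the 6 of plasmacytoid dendritic cells to 1082, 520.0 and 1386 CPM and the 7 of the B lineage to 49.5, 33.8 and 65.5 CPM, in the order ILCpro_KO, ILCpro_WT and ALP. The neutrophil and B lineage lists include the genes used for cleaning, so their sums are in part set by that rule. Cd79b alone gave 35.3, 25.1 and 33.4 CPM and Lyz2 40.4, 12.0 and 111 CPM, in the same order. The part of these other cell types in the values below was not tested, other than by the 2 further cleanings listed with the alternatives. The libraries shared 1 barcode between ILCpro_KO and ILCpro_WT, 4 between ILCpro_WT and ALP and 0 between ILCpro_KO and ALP.

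The libraries also differed in how many cells were called as cycling from scores of S and G2/M genes, none of the scored genes being members. Cells called S or G2/M made up 59.6% of ILCpro_KO cells (55.6 to 63.4), 35.96% of ILCpro_WT cells (33.7 to 38.2) and 69.7% of ALP cells (66.3 to 72.9). After each cell was thinned to 1000 UMIs these shares were 62.8%, 43.2% and 71.8%, with 3 ILCpro_WT cells left out. The 40 S genes summed to 3489 CPM in ILCpro_KO, 2292 CPM in ILCpro_WT and 3773 CPM in ALP, and the 51 G2/M genes to 6056, 4295 and 7957 CPM. The calls are cuts of a score, and 105, 365 and 90 cells lay within 0.05 of the cut in the same order. Cycling cells were also deeper, with a median of 6481.5 UMIs against 3921 in G1 cells of ILCpro_KO, 3898 against 2488 in ILCpro_WT and 5274.5 against 3331 in ALP.

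Promoters are shown for 4 of the members whose levels recur below and whose first RefSeq window holds a match to a site type named here. The capitals mark matches to the TCF type (CTTTG followed by A or T and again by A or T), the letters TCF-1 and its relatives bind, or to the E2F type (TTTCCCGC, TTTGGCGC, TTTCGCGC or TTTGCCGC) found before many genes of the cell cycle. Both strands were searched, and the 2 types do not overlap in these windows. Each run is the 250 bases before the RefSeq start in GRCm38.p6, 5′ to 3′ on the gene's strand. Ezh2 (chr6:47595031-47595280, minus strand), Cbx5 (chr15:103239853-103240102, minus strand) and Kmt2d (chr15:98871206-98871455, minus strand) hold 1 TCF-type match each. Suz12 (chr11:79992856-79993105, plus strand) holds an E2F-type match followed by a TCF-type match.
Ezh2: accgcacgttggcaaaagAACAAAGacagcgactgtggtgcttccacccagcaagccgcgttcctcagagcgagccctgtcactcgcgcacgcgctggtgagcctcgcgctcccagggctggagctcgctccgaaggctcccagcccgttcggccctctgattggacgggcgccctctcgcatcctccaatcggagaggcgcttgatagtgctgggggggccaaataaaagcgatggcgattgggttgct
Suz12: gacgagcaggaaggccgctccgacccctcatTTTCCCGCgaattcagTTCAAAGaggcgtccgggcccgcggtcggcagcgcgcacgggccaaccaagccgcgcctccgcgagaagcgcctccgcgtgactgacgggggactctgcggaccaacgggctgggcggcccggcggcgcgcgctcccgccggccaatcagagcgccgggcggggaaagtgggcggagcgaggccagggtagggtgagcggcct
Cbx5: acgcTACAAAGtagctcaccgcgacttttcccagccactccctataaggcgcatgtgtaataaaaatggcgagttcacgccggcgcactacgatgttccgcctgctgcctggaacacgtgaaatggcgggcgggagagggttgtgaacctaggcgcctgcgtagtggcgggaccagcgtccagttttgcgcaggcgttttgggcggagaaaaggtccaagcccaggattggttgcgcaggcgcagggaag
Kmt2d: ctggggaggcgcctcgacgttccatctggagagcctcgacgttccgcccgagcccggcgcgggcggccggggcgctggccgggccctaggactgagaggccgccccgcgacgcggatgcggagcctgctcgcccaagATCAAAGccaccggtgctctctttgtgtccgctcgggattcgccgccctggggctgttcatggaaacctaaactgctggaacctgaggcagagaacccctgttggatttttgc
RefSeq windows were matched for 30 of the 36 members, and not for Kdm5a, Kdm6b, Hdac1, Hdac3, Kat6a and Rad21. Counting any window of a gene, TCF-type matches occurred in 7 of the 30 members (23.3%), against 16.8% of 27025 genes. E2F-type matches occurred in 4 of the 30, Dnmt1, Suz12, Arid1a and Cbx3 (13.3%), against 2.16% of all genes. For Dnmt1 and Arid1a the E2F-type match was not in the first window. The first windows of Dnmt1 and Kdm6a also hold a TCF-type match and that of Cbx3 an E2F-type match, and these are not shown. A gene with more windows has more places for a match, and the number of windows per gene was not made equal. A match says only that the letters are there.

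**Figure D1:**
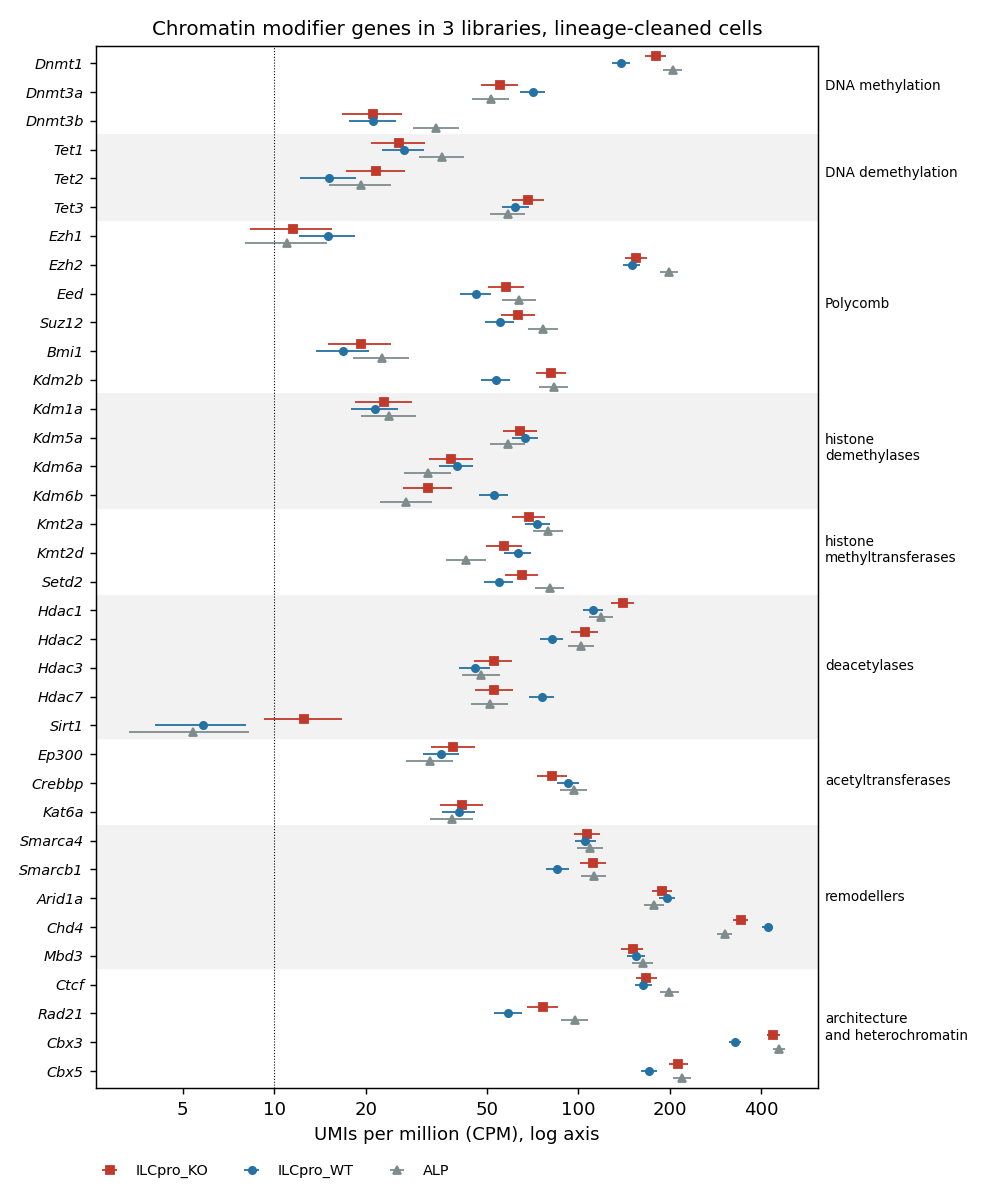
Level of each of the 36 genes in the lineage-cleaned cells of the 3 libraries, in CPM on a log axis, grouped by role. Points are library totals, bars are 95% counting intervals, and the dotted line is the minimum of 10 CPM for the mean. The order of the libraries differs by gene, with ILCpro_WT highest for Kdm6b, Hdac7 and Chd4 and lowest for Kdm2b, Rad21 and Cbx3.

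Between genotypes, ILCpro_KO over ILCpro_WT, no chromatin modifier was called in all cells. A call was a difference of 1.5-fold or more after 10 CPM were added to both levels, and 0 of the 35 members that passed the minimum were called, in either direction. The log2(CPM + 10) scale understates changes of genes with few counts. Of 7606 genes, 6.15% were called higher and 2.33% lower, 8.48% in either direction. In G1 cells alone 2 of 36 members were called higher, Dnmt1 and Sirt1, which passed the minimum there through its level in ILCpro_KO, and none lower, where 9.6% of genes were called higher and 3.12% lower, 12.7% in either direction. In S or G2/M cells alone none of 34 members was called, where 4.72% of genes were called higher and 1.51% lower, 6.22% in either direction. The median log2 ratio of the members was 0.05, against 0.11 over all genes tested. With size factors from median ratios in place of library totals, the median of all genes moved to 0.00, and 297 genes were called higher and 270 lower in place of 468 and 177. The median of 0.11 over all genes holds with 10 CPM added, and it was 0.14 with 1 CPM added. A ratio set against the median gene would be lower by about such an amount than the ratios given here, which use library totals. By role, the median log2 ratio ran between -0.08 for the 3 histone methyltransferases and 0.31 for the 4 genes of genome architecture and heterochromatin. On the log2(CPM + 10) scale the members at the 2 ends, of those that passed the minimum, were Kdm2b, which targets a Polycomb complex to CpG islands, and Kdm6b, which takes the Polycomb mark off histone H3.

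Kdm2b (chr5:122870665-122989823, minus strand, GRCm38) had 81.3 CPM in ILCpro_KO, 53.5 CPM in ILCpro_WT and 83.0 CPM in ALP. ILCpro_WT was the low library, and its interval of 47.8 to 59.6 CPM did not reach that of ILCpro_KO at 72.4 to 91.0 CPM. The ratio of ILCpro_KO to ILCpro_WT was 1.52 (1.30 to 1.78), a log2 ratio of 0.52 with 10 CPM added. It was 1.47 (1.12 to 1.93) in cells called G1 and 1.52 (1.23 to 1.88) in cells called S or G2/M, so it was about the same in either part of the cycle. Kdm6b (chr11:69398508-69413675, minus strand) had 32.1 CPM in ILCpro_KO, 52.8 CPM in ILCpro_WT and 27.2 CPM in ALP. Here ILCpro_WT was the high library, with a ratio of 0.608 (0.488 to 0.752) and a log2 ratio of -0.58, just short of a call. Over the alternatives that kept 10 CPM added this log2 ratio ran between -0.72 and -0.17, and it reached a call in 7 alternatives in all, 1 of them added after seeing the data. The ratio was 0.666 (0.483 to 0.902) in G1 cells and 0.851 (0.609 to 1.19) in S or G2/M cells.

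Among the DNA methyltransferases, Dnmt1 had 179.7 CPM in ILCpro_KO, 139 CPM in ILCpro_WT and 204 CPM in ALP, with ILCpro_WT lowest of the 3 libraries. Its ratio of 1.30 (1.17 to 1.44) between genotypes came apart by cell cycle call. In G1 cells Dnmt1 had 92.2 CPM in ILCpro_KO and 57.7 CPM in ILCpro_WT, a ratio of 1.60 (1.24 to 2.05) and a call. With G1 called after thinning to equal depth, an alternative added after seeing the data, its log2 ratio was 0.56, against 0.59 before thinning, and no call was made. In S or G2/M cells it had 215 and 231 CPM in the same order, a ratio of 0.931 (0.830 to 1.04). Dnmt3a had 55.1 CPM in ILCpro_KO, 70.9 CPM in ILCpro_WT and 51.6 CPM in ALP and a ratio of 0.776 (0.654 to 0.919), and Dnmt3b had 21.1 CPM in ILCpro_KO, 21.1 CPM in ILCpro_WT and 34.2 CPM in ALP and a ratio of 0.999 (0.744 to 1.33). The TET genes gave ratios of 0.963 for Tet1, 1.43 (1.05 to 1.95) for Tet2 and 1.10 for Tet3. Tet2 was the sparsest of these, with 81 UMIs in ILCpro_KO and 91 in ILCpro_WT.

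Polycomb repressive complex 2 methylates lysine 27 of histone H3, and none of its subunits was called between genotypes. Ezh2, its main enzyme in dividing cells, had 155 CPM in ILCpro_KO, 149.7 CPM in ILCpro_WT and 199 CPM in ALP, a ratio of 1.04 (0.933 to 1.15). Its ratio was 0.944 (0.726 to 1.22) in G1 cells and 0.817 (0.726 to 0.920) in S or G2/M cells. Eed and Suz12, the subunits that stabilise it, had ratios of 1.26 (1.05 to 1.51) and 1.15 (0.969 to 1.36), and Ezh1, the enzyme's paralogue, one of 0.767 (0.521 to 1.12). Bmi1, of the complex that ubiquitinates histone H2A, had 19.3 CPM in ILCpro_KO, 16.8 CPM in ILCpro_WT and 22.6 CPM in ALP. Of the other demethylases, Kdm1a, Kdm5a and X-linked Kdm6a had ratios of 1.07, 0.963 and 0.961. Of the sex-linked genes, Y-linked Ddx3y and Eif2s3y had 0 UMIs in all 3 libraries, Uty had 1, 1 and 2 UMIs and Kdm5d 0, 4 and 3 UMIs in ILCpro_KO, ILCpro_WT and ALP. Xist, from the inactive X chromosome, was called lower in ILCpro_KO, at 3845 CPM, against 7004 CPM in ILCpro_WT, and had 4808 CPM in ALP. The histone methyltransferases Kmt2a, Kmt2d and Setd2 had ratios of 0.938, 0.900 and 1.19.

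Deacetylases and the remodellers they work with went in both directions. Hdac1, a catalytic subunit of NuRD and other co-repressors, had 139.8 CPM in ILCpro_KO, 112 CPM in ILCpro_WT and 119 CPM in ALP, a ratio of 1.25 (1.11 to 1.40), and its paralogue Hdac2 one of 1.29 (1.12 to 1.47). For Hdac1 the ratio was 1.08 (0.877 to 1.32) in G1 cells and 1.33 (1.15 to 1.55) in S or G2/M cells. Chd4, the motor of NuRD, had 342 CPM in ILCpro_KO, 419 CPM in ILCpro_WT and 303 CPM in ALP. It was highest in ILCpro_WT, with intervals that do not meet between libraries, and its ratio was 0.815 (0.762 to 0.872). In cells of 2000 to 8000 UMIs the log2 ratio of Chd4 was -0.11, against -0.29 in all cells. Mbd3, which binds NuRD together, had a ratio of 0.974. Hdac7, a class IIa deacetylase known in thymocytes, had 52.9 CPM in ILCpro_KO, 75.9 CPM in ILCpro_WT and 51.1 CPM in ALP and a ratio of 0.697 (0.587 to 0.826), and its log2 ratio was -0.10 in cells of 2000 to 8000 UMIs, against -0.45 in all cells. Hdac3 had a ratio of 1.15. Sirt1, an NAD-dependent deacetylase, had 47, 35 and 21 UMIs in ILCpro_KO, ILCpro_WT and ALP, or 12.6, 5.83 and 5.39 CPM. That is a ratio of 2.16 (1.36 to 3.44) between genotypes, with 2.33 (1.19 to 4.52) in G1 cells and 2.54 (1.26 to 5.46) in S or G2/M cells.

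Of the SWI/SNF genes, the core subunit Smarcb1 had 112 CPM in ILCpro_KO, 85.3 CPM in ILCpro_WT and 112 CPM in ALP and a ratio of 1.31 (1.15 to 1.49). The motor Smarca4 and the DNA-binding subunit Arid1a had ratios of 1.015 and 0.960. The acetyltransferases Ep300, Crebbp and Kat6a stood at 1.09, 0.885 and 1.02. Ctcf, the loop anchor, had 167 CPM in ILCpro_KO, 164 CPM in ILCpro_WT and 199 CPM in ALP and a ratio of 1.02, while the cohesin subunit Rad21 had 76.5 CPM in ILCpro_KO, 58.9 CPM in ILCpro_WT and 97.3 CPM in ALP and a ratio of 1.30 (1.11 to 1.52). Rad21 gave 0.895 (0.618 to 1.27) in G1 cells and 1.20 (0.993 to 1.45) in S or G2/M cells. The heterochromatin proteins Cbx3 and Cbx5, which bind methylated lysine 9 of histone H3, had ratios of 1.34 (1.25 to 1.43) and 1.25 (1.14 to 1.37). For Cbx3 the ratio was 1.12 (0.989 to 1.28) in G1 cells and 1.27 (1.17 to 1.37) in S or G2/M cells. For Cbx5 the ratio was 1.24 (0.987 to 1.54) in G1 cells and 0.959 (0.864 to 1.07) in S or G2/M cells. The gene annotation names 8 pseudogenes of Cbx3 and 1 of Dnmt3a, so reads shared with these copies could have been counted elsewhere or dropped.

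**Figure D2:**
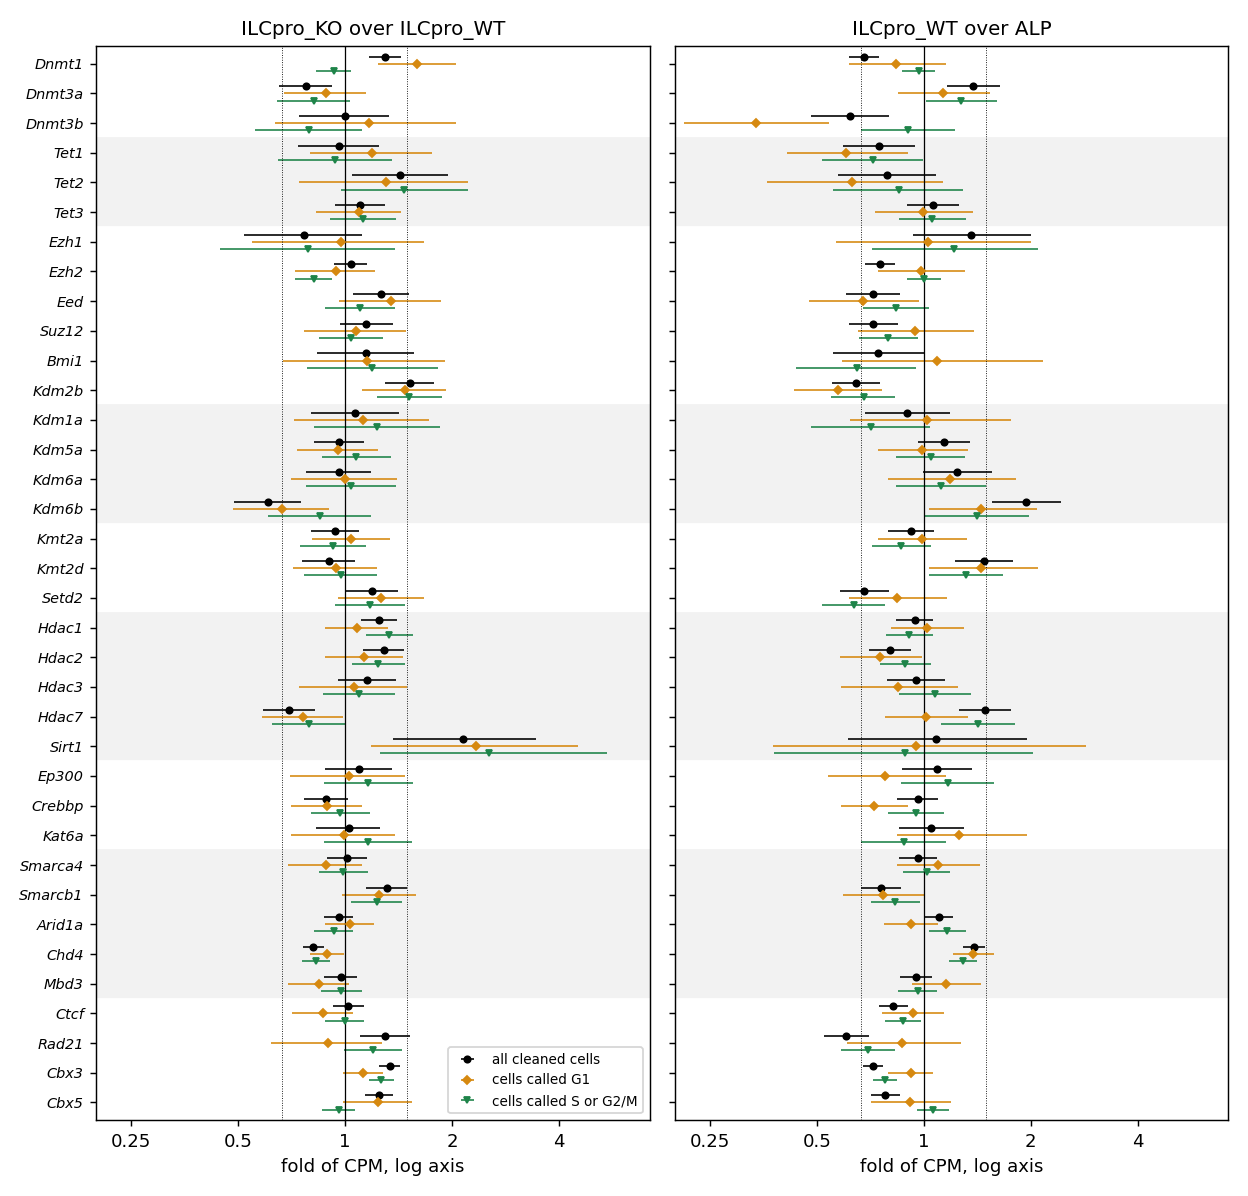
Ratio of CPM for each member between ILCpro_KO and ILCpro_WT (left) and between ILCpro_WT and ALP (right), on a log axis, in all cleaned cells, in cells called G1 and in cells called S or G2/M. Bars are 95% counting intervals and dotted lines mark 1.5-fold on plain CPM, while calls use 10 CPM added. Kdm2b lies right of 1 in the left panel and left of 1 in the right panel in all 3 sets of cells, while Dnmt1 differs between the sets.

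Between gates in Tcf7EGFP/+ mice, ILCpro_WT over ALP, 1 of 35 members was called higher, Kdm6b, and 1 lower, Rad21. Among all 7606 genes 4.9% were called higher and 10.1% lower, 15% in either direction. In G1 cells alone no member was called higher and 2 were called lower, Dnmt3b and Kdm2b, where 7.21% of genes were called higher and 12.9% lower, 20.1% in either direction. In S or G2/M cells alone no member was called, where 3.69% were called higher and 7.47% lower, 11.2% in either direction. The median log2 ratio of the members was -0.11, against -0.08 over all genes. With median-ratio size factors 475 genes were called higher and 621 lower, in place of 373 and 767, and Rad21 was then not called. By role, the median log2 ratio ran between -0.50 for the 3 DNA methyltransferases and 0.20 for the 4 histone demethylases. Kdm2b, a lysine demethylase by name, was counted with Polycomb and had a log2 ratio of -0.55. This comparison shares the ILCpro_WT library with the one between genotypes, so a value of that library enters both.

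Kdm6b had 52.8 CPM in ILCpro_WT (317 UMIs) and 27.2 CPM in ALP (106 UMIs), a ratio of 1.94 (1.55 to 2.44). Within G1 cells the levels were 72.7 and 50.2 CPM, a ratio of 1.45 (1.03 to 2.08), and within S or G2/M cells 30.0 and 21.3 CPM, a ratio of 1.41 (1.007 to 1.97). Neither of these reached a call. Rad21 (chr15:51962240-51991747, minus strand) had 58.9 CPM in ILCpro_WT and 97.3 CPM in ALP, a ratio of 0.606 (0.522 to 0.702). The ratio was 0.870 (0.608 to 1.27) in G1 cells and 0.698 (0.585 to 0.831) in S or G2/M cells, again with no call, and its log2 ratio was -0.46 in cells of 2000 to 8000 UMIs, against -0.64 in all cells.

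DNA methylation genes differed from each other between the gates. Dnmt3b (chr2:153649450-153687730, plus strand) had 21.1 CPM in ILCpro_WT (127 UMIs) and 34.2 CPM in ALP (133 UMIs), a ratio of 0.619 (0.482 to 0.796). In G1 cells it stood at 14.4 CPM in ILCpro_WT and 42.7 CPM in ALP, a ratio of 0.336 (0.211 to 0.540) and a call. In S or G2/M cells the ratio was 0.905 (0.666 to 1.23). Dnmt3a went the other way, with a ratio of 1.37 (1.16 to 1.63), and Dnmt1 had 0.679 (0.615 to 0.749) in all cells, 0.836 (0.616 to 1.15) in G1 cells and 0.967 (0.869 to 1.08) in S or G2/M cells. Tet1 had a ratio of 0.746 (0.591 to 0.944), Tet2 of 0.787 and Tet3 of 1.06.

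Of the 6 Polycomb members, 5 had ratios below 1 between ILCpro_WT and ALP, and none was called in all cells. The median log2 ratio over all genes was also negative here, at -0.08, and the share of all genes below 1 is not given. Kdm2b had a ratio of 0.644 (0.550 to 0.754), with 52.4 and 91.7 CPM in the G1 cells of ILCpro_WT and ALP, a ratio of 0.572 (0.432 to 0.764) and a call there. Its ratio in S or G2/M cells was 0.677 (0.550 to 0.831). Ezh2, Eed and Suz12 had ratios of 0.752 (0.682 to 0.829), 0.719 (0.603 to 0.856) and 0.720 (0.614 to 0.845). Within G1 cells these were 0.979, 0.674 and 0.942, and within S or G2/M cells 1.001, 0.835 and 0.795. Bmi1 had a ratio of 0.744 (0.554 to 1.002), and Ezh1, the paralogue of Ezh2, one of 1.36 (0.934 to 2.00).

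Among the histone methyltransferases, Kmt2d, which methylates lysine 4 of histone H3 at enhancers, had 63.3 CPM in ILCpro_WT and 42.9 CPM in ALP, a ratio of 1.48 (1.23 to 1.78). It was 1.45 in G1 cells and 1.31 in S or G2/M cells, so it held its direction in either part of the cycle. Setd2, which methylates lysine 36, had 54.8 CPM in ILCpro_WT and 80.6 CPM in ALP, a ratio of 0.679 (0.580 to 0.796), and Kmt2a one of 0.920. Chd4 (chr6:125095981-125130591, plus strand) had a ratio of 1.38 (1.29 to 1.48), with 1.38 in G1 cells and 1.29 in S or G2/M cells. Hdac7 had a ratio of 1.49 (1.26 to 1.76) in all cells, 1.011 (0.779 to 1.33) in G1 cells and 1.42 (1.12 to 1.80) in S or G2/M cells. The other NuRD genes Hdac1, Hdac2 and Mbd3 had ratios of 0.942, 0.802 and 0.950, and Hdac3 one of 0.950. Smarcb1 had 0.758, Smarca4 0.963 and Arid1a 1.10. The ratios of Kdm1a, Kdm5a and Kdm6a were 0.899, 1.14 and 1.24, those of Ep300, Crebbp and Kat6a were 1.09, 0.960 and 1.05, and that of Sirt1 was 1.08. Ctcf, Cbx3 and Cbx5 had ratios of 0.821, 0.717 and 0.780, with 0.931, 0.918 and 0.916 in G1 cells.

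ILCpro_KO over ALP, which differs in both gate and genotype, gave no call among the 35 members, where 5.51% of genes were called higher and 4.67% lower, 10.2% in either direction. In G1 cells alone Sirt1, which passed the minimum only through its level in ILCpro_KO, was called higher and Dnmt3b lower, where 9.88% of genes were called higher and 8.74% lower, 18.6% in either direction. In S or G2/M cells alone no member was called, where 4.97% were called higher and 4.37% lower, 9.34% in either direction. It shares a library with each of the comparisons above. The median log2 ratio of the members was -0.03, against 0.03 over all genes. Dnmt3b was lowest by fold, at 21.1 CPM in ILCpro_KO and 34.2 CPM in ALP, a ratio of 0.618 (0.462 to 0.823). In G1 cells that ratio was 0.392 (0.209 to 0.715). Tet1 had a ratio of 0.719 (0.548 to 0.939), Ezh2 of 0.780 (0.700 to 0.870), Rad21 of 0.786 (0.671 to 0.918) and Kmt2d of 1.33 (1.08 to 1.64). Kdm2b and Kdm6b had ratios of 0.980 (0.835 to 1.15) and 1.18 (0.900 to 1.55) here. The other members that passed the minimum had ratios between 0.809 and 1.19. Sirt1, under the minimum, had a ratio of 2.33 (1.37 to 4.10) from 47 and 21 UMIs.

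Within each library, cycling cells were set against G1 cells. Dnmt1, Ezh2, Cbx5 and Rad21 were called higher in all 3 libraries. The share of all genes called in all 3 libraries is not given here, so this overlap has no background beside it. In ILCpro_KO 5 of 35 members were called higher and 1 lower, where 8.98% of genes were called higher and 6.28% lower, 15.3% in either direction. In ILCpro_WT 5 were higher and 1 lower, where 10% of genes were higher and 5.19% lower, 15.2% in either direction. In ALP 6 were higher and 3 lower, where 9.52% were higher and 5.67% lower, 15.2% in either direction. Kdm6b was the member called lower in all 3. Dnmt1 had ratios of 2.33 (1.88 to 2.92) in ILCpro_KO, 3.999 (3.39 to 4.73) in ILCpro_WT and 3.46 (2.63 to 4.64) in ALP. Those of Ezh2 were 2.49, 2.87 and 2.81, those of Cbx5 2.37, 3.05 and 2.63, and those of Rad21 2.34, 1.75 and 2.18, in the same order of libraries. The ratio of Dnmt1 was thus lowest in ILCpro_KO, where its level in G1 cells was highest, at 92.2 CPM, against 57.7 CPM in ILCpro_WT and 69.1 CPM in ALP.

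Further calls were made in 1 or 2 libraries. Cbx3 was called higher in ILCpro_KO and ALP, with ratios of 1.57 and 1.65, and stood at 1.40 in ILCpro_WT. Suz12 was called higher in ALP, at 1.76, with 1.43 in ILCpro_KO and 1.48 in ILCpro_WT. Dnmt3b was called higher in ILCpro_WT, at 2.01 (1.39 to 2.96), with 1.37 (0.796 to 2.45) in ILCpro_KO and 0.748 (0.502 to 1.14) in ALP. Kdm6b had ratios of 0.527 (0.362 to 0.771) in ILCpro_KO, 0.412 (0.317 to 0.531) in ILCpro_WT and 0.424 (0.282 to 0.645) in ALP. Hdac7 and Crebbp were called lower in ALP, at 0.453 and 0.591, with 0.661 and 0.846 in ILCpro_KO and 0.636 and 0.775 in ILCpro_WT. Dnmt3a, not called, had 0.675, 0.730 and 0.649 in the order ILCpro_KO, ILCpro_WT and ALP. Ezh1, whose low level with 10 CPM added kept it from a call, had 0.509 (0.267 to 0.983) in ILCpro_KO, 0.631 (0.396 to 0.988) in ILCpro_WT and 0.532 (0.272 to 1.09) in ALP. Within Polycomb repressive complex 2 the paralogues Ezh2 and Ezh1 thus stood on opposite sides of 1 in every library.

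**Figure D3:**
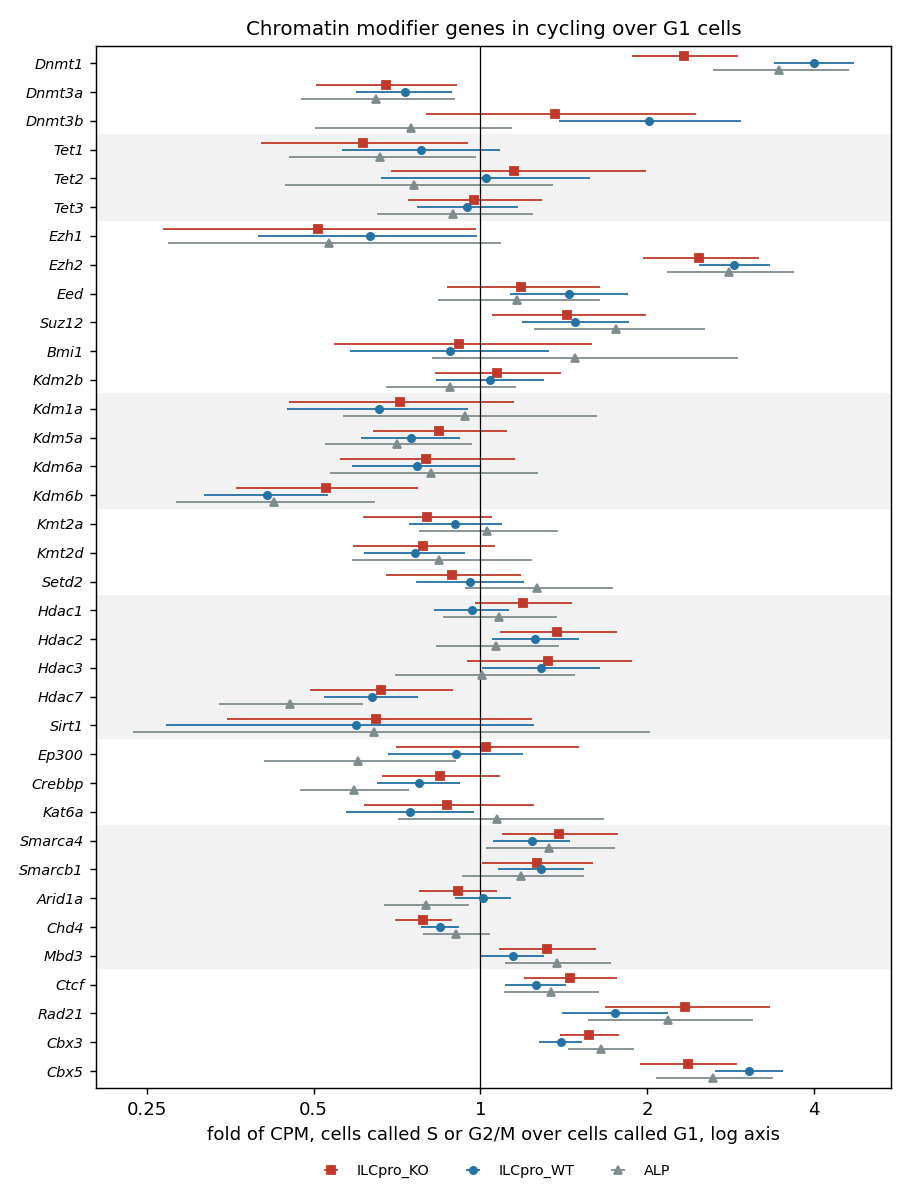
Ratio of CPM in cells called S or G2/M over cells called G1, for each member and library, on a log axis with 95% counting intervals. Dnmt1, Ezh2, Cbx5 and Rad21 lie right of 1 in all 3 libraries and Kdm6b lies left of 1 in all 3.

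Taking S and G2/M apart, members differed in where they stood highest. Ctcf had 127, 141 and 235 CPM in G1, S and G2/M cells of ILCpro_KO, 146, 139.9 and 230.0 in ILCpro_WT and 157, 159.7 and 262 in ALP. Its G2/M level was the highest in each library, with G2/M over S ratios of 1.66 (1.38 to 2.00), 1.64 (1.37 to 1.97) and 1.64 (1.40 to 1.93) in the order ILCpro_KO, ILCpro_WT and ALP. Rad21 had 39.1, 62.7 and 126 CPM in G1, S and G2/M cells of ILCpro_KO, 43.7, 55.0 and 98.9 in ILCpro_WT and 50.2, 64.5 and 155 in ALP, with G2/M over S ratios of 2.01, 1.80 and 2.41. Dnmt1 was highest in S cells in all 3, at 92.2, 248 and 175 CPM in G1, S and G2/M cells of ILCpro_KO, 57.7, 269 and 191 in ILCpro_WT and 69.1, 252 and 225 in ALP. Dnmt3a was highest in G1 cells and lowest in G2/M cells, at 71.7, 61.3 and 32.9 CPM in G1, S and G2/M cells of ILCpro_KO, 81.2, 68.9 and 49.1 in ILCpro_WT and 71.6, 57.5 and 35.3 in ALP. Crebbp was lowest in S cells in all 3, at 92.2, 62.0 and 97.2 CPM in G1, S and G2/M cells of ILCpro_KO, 104, 68.9 and 92.3 in ILCpro_WT and 143, 68.3 and 101 in ALP, with G2/M over S ratios of 1.57, 1.34 and 1.48.

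**Figure D4:**
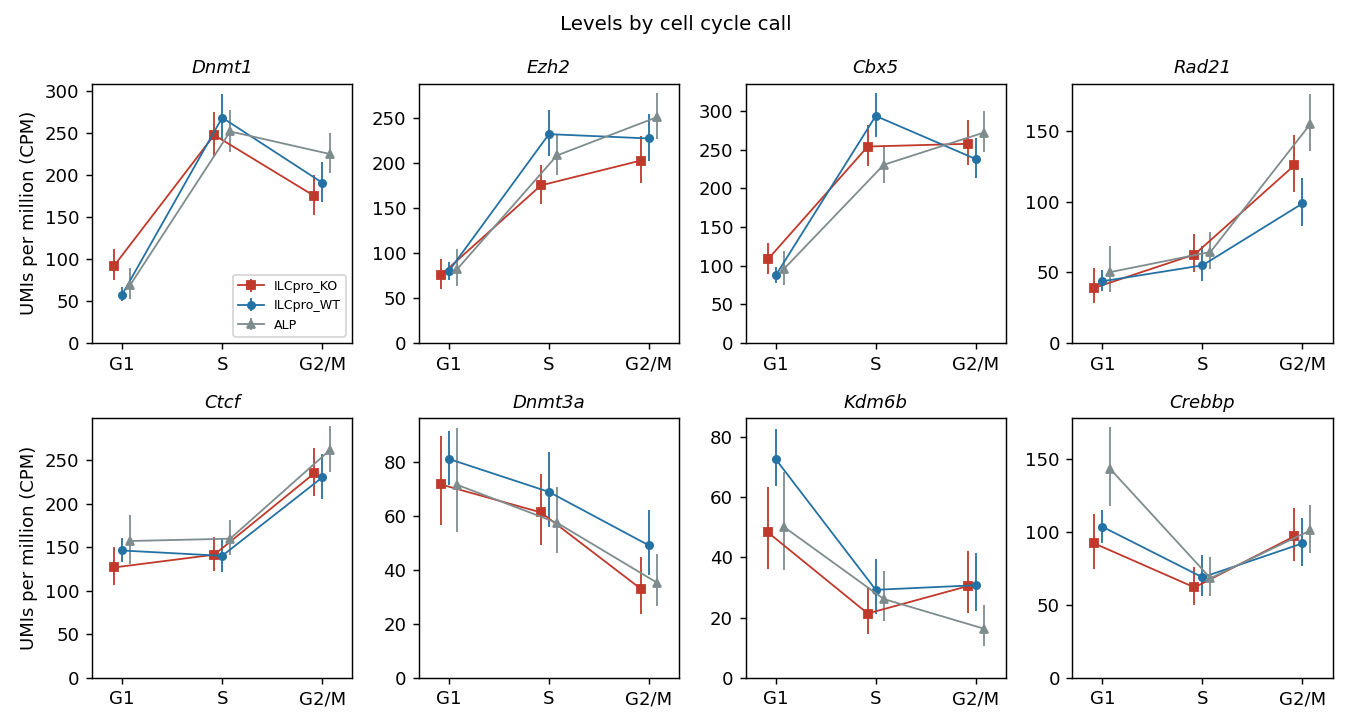
Levels in CPM of 8 members in cells called G1, S and G2/M, with a line for each library and 95% counting intervals. Ctcf and Rad21 are highest in G2/M cells, Dnmt1 in S cells and Dnmt3a and Kdm6b in G1 cells of all 3 libraries.

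Shares of cells with a UMI were compared after thinning each cell to 1000 UMIs. Chd4 was found in 29.2% (25.6 to 32.9) of ILCpro_KO cells, 34.6% (32.4 to 36.9) of ILCpro_WT cells and 25.4% (22.3 to 28.6) of ALP cells, against 78.6%, 69.6% and 72.3% unthinned, so the place of ILCpro_WT changed from lowest to highest once depth was equal. Cbx3 was found in 26.8% (23.4 to 30.4), 22.2% (20.3 to 24.2) and 31.3% (28.1 to 34.8) after thinning, in that order, and in 69.3%, 49.1% and 68.4% before it. For Kdm6b the share was 2.85% (1.70 to 4.47), 6.10% (5.04 to 7.31) and 3.25% (2.11 to 4.76), and unthinned 15.8%, 14.5% and 12.2%. Sirt1 had thinned shares of 1.58% (0.763 to 2.90), 0.333% (0.122 to 0.723) and 0.650% (0.211 to 1.51). These rest on 10, 6 and 5 cells with a UMI, too few for a reading of its order. All cells use genes of this kind, so no cell type in these libraries could serve as a background without them.

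A further list of 143 chromatin genes outside the 36, of which 127 passed the minimum, was measured the same way. Between genotypes, ILCpro_KO over ILCpro_WT, 2 of the 127 were called higher and 2 lower, 1.57% each, against 6.15% and 2.33% of all genes, with a median log2 ratio of 0.02. Baz1a, of an ISWI remodeller, had 122 CPM in ILCpro_KO and 60.3 CPM in ILCpro_WT, a ratio of 2.03 (1.77 to 2.34). Hat1, which acetylates newly made histone H4, had 82.9 CPM in ILCpro_KO and 48.6 CPM in ILCpro_WT, a ratio of 1.70 (1.45 to 2.01). Chd3, the paralogue of Chd4 in NuRD, had 82.1 CPM in ILCpro_KO, 185 CPM in ILCpro_WT and 125 CPM in ALP, with a ratio of 0.445 (0.391 to 0.505) between genotypes. Yaf2, a Polycomb partner, had 8.29 CPM in ILCpro_KO and 18.3 CPM in ILCpro_WT, a ratio of 0.453 (0.293 to 0.679). The NuRD motors Chd3 and Chd4 thus were both at their highest in ILCpro_WT, with the larger difference in Chd3.

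Between gates, ILCpro_WT over ALP, 5 of the 127 were called higher (3.94%) and 7 lower (5.51%), against 4.9% and 10.1% of all genes, with a median of -0.12. Among the highest were Kdm5b, a demethylase of lysine 4 of histone H3 (104 CPM in ILCpro_WT and 50.6 CPM in ALP), Bcor and Jarid2, with ratios of 2.06, 2.166 and 1.96. Bcor belongs to the complex that Kdm2b targets, and Jarid2 is a partner of Polycomb repressive complex 2. The 4 lowest were Hat1, Pcgf5, Sirt3 and Uhrf1, with ratios of 0.476, 0.461, 0.551 and 0.560. Uhrf1, which brings Dnmt1 to replicated DNA, had 54.1 CPM in ILCpro_WT and 96.6 CPM in ALP. In ILCpro_KO over ALP, 2 were called higher (1.57%) and 5 lower (3.94%), against 5.51% and 4.67% of all genes, with a median of -0.09. The 2 called higher were Baz1a at 1.66 and Sirt7 at 1.61, and the 4 lowest were the NuRD subunit Mta3 at 0.519, Pcgf5 at 0.459 and the SWI/SNF genes Smarca2 at 0.523 and Arid1b at 0.532.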

How the data were processed

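Tables of raw UMI counts per gene and cell barcode were deposited by the authors, 1 per library, and per the submitters' processing notes they were made with bcl2fastq 2.17, STAR 2.5.1b and Cell Ranger 2.0.1 on mm10. The rule for calling cells and the gene annotation are not given in the sources used here. Counts mark transcript 3′ ends, so levels of different genes are not compared.

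Cells with at least 500 genes and at most 10% mitochondrial UMIs were kept, then cleaned as described above, and counts were summed per library and divided by the library total (CPM). Genes with a mean of at least 10 CPM over the 3 libraries were tested, and a call was a ratio of at least 1.5-fold on log2(CPM + 10). With 1 library per group no model was fitted and no p-value was computed, and the groups come from the submitters' labels. Intervals are exact 95% ones (Poisson for CPM, conditional binomial for ratios, Clopper-Pearson for shares) and cover counting error only. For a gene with 0 UMIs the interval reaches 0.986 CPM in ILCpro_KO, 0.614 CPM in ILCpro_WT and 0.947 CPM in ALP. A count of 3 UMIs stands at 0.802, 0.4996 and 0.770 CPM in the same order. Cell cycle calls came from scanpy 1.11.5 with 40 S and 51 G2/M genes (seed 0), with all members left out of both lists. Doublets were kept in, and an alternative removed the highest Scrublet scores (0.8% per 1000 cells, or 4 ILCpro_KO, 27 ILCpro_WT and 5 ALP cells). In total 15 alternatives were run, 2 of them added after seeing the data. Gene positions are from GENCODE vM21 on GRCm38, and promoters are from RefSeq on GRCm38.p6. The scripts were checked on simulated counts with known ratios.

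The members, their roles and the other gene lists were chosen with earlier results of these data known. All 36 members are named, with at most 4 highest and 4 lowest of the other chromatin genes in each comparison. One gene that this rule would name is not reported here.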

Additional observations from a re-analysis of the deposited data

How the results depend on the processing

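The median log2 ratio of the members kept within -0.08 to 0.10 for ILCpro_KO over ILCpro_WT, -0.19 to -0.02 for ILCpro_WT over ALP and -0.06 to 0.02 for ILCpro_KO over ALP under the 15 alternatives. Kdm6b and Rad21, the members called in all cells and only in ILCpro_WT over ALP, kept their direction under all of them. Members called only under an alternative did not always do so. Over the alternatives that kept 10 CPM added, the log2 ratio of Dnmt1 in ILCpro_KO over ILCpro_WT ran between -0.10 and 0.59. That of Tet2 in ILCpro_KO over ALP ran between -0.66 and 0.21. Members near 1.5-fold moved across it, as the following counts show, and the cause was not tested. The sets limited to S or G2/M cells and to G1 cells called after thinning were chosen after seeing the data.

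For ILCpro_KO over ILCpro_WT, with no member called, 1 was lower (Kdm6b) with cleaning by share of UMIs, wider cleaning, per-cell means, totals without ribosomal and mitochondrial genes, median-ratio size factors, a pseudocount of 1 CPM, or G1 cells called after thinning. The count higher was 2 in G1 cells (Dnmt1 and Sirt1). It was 1 in cells of 2000 to 8000 UMIs, with per-cell means and with a pseudocount of 1 CPM (Kdm2b each time), and 1 in G1 cells called after thinning (Sirt1). In these settings 2.57% to 4.10% of all genes were called lower and 6.43% to 11.8% higher.

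For ILCpro_WT over ALP, with 1 member called in each direction, the count higher was 0 in G1 cells, in S or G2/M cells, in G1 cells called after thinning, with per-cell means and with a 2-fold call. It was also 0 with a minimum of 50 CPM, which Kdm6b, at a mean of 37.4 CPM, did not pass. Of all genes 2.24% to 7.52% were called higher in these settings. The count lower was 0 in S or G2/M cells, in cells of 2000 to 8000 UMIs, with median-ratio size factors and with a 2-fold call, where 3.25% to 9.27% of all genes were called lower. The count lower was 2 in G1 cells (Dnmt3b and Kdm2b), 2 with per-cell means (Dnmt1 and Dnmt3b), 3 with a pseudocount of 1 CPM (Dnmt3b, Kdm2b and Rad21) and 5 in G1 cells called after thinning (Dnmt3b, Eed, Kdm2b, Tet1 and Tet2). Of all genes 12.9%, 10.7%, 15.3% and 13.4% were called lower in these 4 settings.

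For ILCpro_KO over ALP, with no member called, 1 was higher in G1 cells and with totals without ribosomal and mitochondrial genes. Both times it was Sirt1, with the same limit from the minimum. The count lower was 1 (Dnmt3b) in G1 cells, with per-cell means, with totals without ribosomal and mitochondrial genes and with a pseudocount of 1 CPM, and 2 in G1 cells called after thinning (Dnmt3b and Tet2). In these settings 9.88% and 5.91% of all genes were called higher, and 4.85% to 8.75% lower.

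No paired analysis was possible because each group is 1 library and the labels carry no replicate numbers, and there was no replicate to leave out. Depth limits the sparsest members most, since Sirt1 rests on 47 UMIs in ILCpro_KO, 35 in ILCpro_WT and 21 in ALP, and the G1 cells number 255, 1156 and 233 in the same order. Animal, sort and library preparation cannot be told apart from genotype or gate.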
